A study of Mus musculus with 18 samples.

Results

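BC018473, Wdfy1, Mettl23, Usp36, Lsm12 and Prkca are 6 mouse genes picked out because their kidney mRNA signal differed between TIMP2-/- and wild type (WT) mice. Of 12393 genes with a symbol of their own on the array, they are 6, read by 11 of the 22626 non-control probe sets, namely every probe set that the platform annotation pairs with 1 of the 6 symbols and with no other. BC018473, Usp36 and Prkca had 2 probe sets each, Wdfy1 had 3, and Mettl23 and Lsm12 had 1 each. The choice rested on TIMP2-/- against WT, both after sham surgery and after obstruction, so the members' values in that comparison are given as a description, with no test. In the study, total RNA of the kidney on the operated side was hybridised to Affymetrix arrays 3 days after unilateral ureteral obstruction (UUO), in which the right ureter is tied, or after a sham operation without the tie. The 6 groups were TIMP2-/- UUO, TIMP3-/- UUO, WT UUO, TIMP2-/- sham, TIMP3-/- sham and WT sham, with 3 arrays each and 18 in all. All mice, the controls included, were of the C57BL/6 strain by their labels, and the knockouts lacked TIMP2 or TIMP3. The sources used here do not give how the alleles were made, how often the lines were crossed to C57BL/6 or how old the mice were.

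TIMP2 and TIMP3 are secreted inhibitors of the matrix metalloproteinases, the enzymes that cut extracellular matrix, and TIMP2 also takes part in the activation of the precursor of MMP2. The 6 genes do not form a pathway. Wdfy1 encodes an endosomal protein with WD40 repeats and a FYVE domain that takes part in TLR3 and TLR4 signalling through the adaptor TRIF. Mettl23 belongs to the METTL family of methyltransferases, Usp36 encodes a nucleolar deubiquitinase, and Lsm12 encodes a protein of the Sm-like family, which is known for binding RNA. Prkca encodes protein kinase C alpha, a kinase switched on by calcium and diacylglycerol, and BC018473 is listed by RefSeq as a long non-coding RNA.

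The start regions of Mettl23, Usp36 and Prkca show what kind of promoter lies at 3 of the genes, among them the 2 that read lower in TIMP2-/- kidneys after UUO. They are from RefSeq, build GRCm38.p6, run 5′ to 3′ along the gene's strand from 250 bases before the start to 50 after it, and carry in capitals each match, on either strand, to CCAAT or to GGGCGG, the GC box. The table matched 3 of the 6 genes, and TATAAA, searched on both strands too, was found in none of the 3.
Mettl23, chr11:116843265-116843564, plus strand: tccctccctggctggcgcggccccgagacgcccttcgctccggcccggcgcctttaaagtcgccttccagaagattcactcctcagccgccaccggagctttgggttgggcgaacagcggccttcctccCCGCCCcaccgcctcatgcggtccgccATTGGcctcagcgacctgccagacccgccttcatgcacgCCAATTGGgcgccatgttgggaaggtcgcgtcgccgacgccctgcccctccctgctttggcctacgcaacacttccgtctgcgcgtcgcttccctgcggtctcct
Usp36, chr11:118290195-118290494, minus strand: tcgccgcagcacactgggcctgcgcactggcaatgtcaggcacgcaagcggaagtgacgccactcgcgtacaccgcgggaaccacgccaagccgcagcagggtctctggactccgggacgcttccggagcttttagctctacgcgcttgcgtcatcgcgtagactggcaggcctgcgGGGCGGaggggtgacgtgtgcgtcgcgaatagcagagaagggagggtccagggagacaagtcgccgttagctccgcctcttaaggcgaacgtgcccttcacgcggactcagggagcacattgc
Prkca, chr11:108343839-108344138, minus strand: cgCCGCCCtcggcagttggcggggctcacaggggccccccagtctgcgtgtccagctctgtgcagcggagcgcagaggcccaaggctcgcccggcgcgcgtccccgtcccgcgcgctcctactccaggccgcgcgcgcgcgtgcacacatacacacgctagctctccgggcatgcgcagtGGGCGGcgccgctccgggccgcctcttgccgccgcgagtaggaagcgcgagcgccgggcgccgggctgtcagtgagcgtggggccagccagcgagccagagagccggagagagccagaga

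All 3 windows were rich in G and C. Their GC content was 68.3% at Mettl23, 65.0% at Usp36 and 75.3% at Prkca, against a median of 52.7% over the 32841 promoters of the table. The CpG dinucleotides numbered 32 at Mettl23, 33 at Usp36 and 42 at Prkca, against a median of 7. Mettl23 held 3 matches to CCAAT, at positions -94, -55 and -52 from the start, of which the last 2 lie on opposite strands and overlap, and 1 GC box at -121. Usp36 held 1 GC box at -73 and Prkca held 2, at -248 and -70. CCAAT was held by 37.4% of all promoters there, GGGCGG by 35.7% and TATAAA by 13.6%, in a window of the same length. A match describes the letters only.

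The 5 members on chromosome 11 lie at very different distances from Timp2. In the RefSeq gene order of chromosome 11, Usp36 is the gene next to Timp2, Mettl23 is the 45th gene away and BC018473 the 49th, all on the same side. Prkca is 263 genes away and Lsm12 446 genes away, also on that side, and Wdfy1 is on another chromosome. No genome build is named for the array values, so that distances are given as numbers of genes. Mettl23 overlaps the span of Jmjd6, and Wdfy1 that of Mrpl44.

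The targeted genes were read first, as a check of the labels. Of the 6 Timp2 probe sets, 5 were lower in TIMP2-/- kidneys after UUO, with log2 differences of -2.32 to -1.60 against WT, and 0 passed after sham by limma, where the adjusted p were 0.143 to 0.724. The probe set with the largest drop, 1433662_s_at, still read 742 to 897 in TIMP2-/- UUO kidneys against 3521 to 4689 in WT UUO kidneys, and 571 to 681 in TIMP2-/- sham kidneys against 971 to 1475 in WT sham kidneys. The sources used here do not say where these probe sets lie relative to the deletion, and one outside the deleted part checks nothing. The 4 Timp3 probe sets read 20.1 to 60.8 in TIMP3-/- kidneys, against 990 to 9040 in WT kidneys. Of 8 kidney markers 7 were measured, and their summed intensity was at least 28279 on every array. Of the 18 arrays 3 stood apart. On the second principal component, with 16.6% of the variance, WT sham 3 at 81.4 and TIMP3-/- UUO 2 at 55.2 lay far from the other arrays, and the summed hepatocyte markers of WT UUO 2 reached 78669, against 4263 on the lowest WT UUO array. Values below are intensities on a linear scale, and array medians lay between 201 and 247.

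BC018473, the long non-coding RNA, was far higher in TIMP2-/- kidneys than in any other group, by the probe set 1427451_a_at. After UUO this probe set read 257, 273 and 265 in TIMP2-/- kidneys, 18.4, 15.03 and 19.8 in TIMP3-/- kidneys and 20.2, 21.4 and 20.2 in WT kidneys. After sham it read 274, 521 and 551 in TIMP2-/- kidneys, 18.1, 33.2 and 29.7 in TIMP3-/- kidneys and 32.1, 32.9 and 26.7 in WT kidneys. Every TIMP2-/- array lay far above every array of the other genotypes. The log2 difference of TIMP2-/- minus WT was 3.68 after UUO and 3.81 after sham, which no other probe set exceeded in size in either. The TIMP3-/- and WT readings lay under the lower quartile of their arrays, which was 56.8 to 64.2, and in the range of the Timp3 probe sets in TIMP3-/- kidneys or below it, so that they are not shown to be above background. The size of the difference therefore depends on how low readings are treated, and with 16 added to every value before taking log2 it was 2.94 after UUO and 3.26 after sham.

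The other BC018473 probe set, 1427453_at, was dim on every array, between 12.8 and 31.1. It averaged 18.8 ± 3.0 in TIMP2-/- UUO and 16.1 ± 2.9 in WT UUO kidneys, and 26.3 ± 3.5 in TIMP2-/- sham and 20.9 ± 2.3 in WT sham kidneys (mean ± SD, n = 3 each). Its groups overlapped after UUO and after sham, with log2 differences of 0.23 and 0.33. The 2 probe sets of BC018473 therefore disagree, and their Pearson correlation over the 18 arrays was 0.49. The sources used here do not say what part of the transcript each one reads.

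Wdfy1, the endosomal adaptor gene on chromosome 1, was the other gene with a very large difference. Its probe set 1424749_at read 496, 521 and 484 in TIMP2-/- UUO kidneys, 124, 133 and 133 in TIMP3-/- UUO kidneys and 94.2, 107 and 75.5 in WT UUO kidneys. After sham it read 610, 576 and 733 in TIMP2-/-, 122, 98.3 and 106 in TIMP3-/- and 99.6, 98.8 and 120.1 in WT kidneys. The 6 TIMP2-/- arrays stood in a band of their own. TIMP2-/- minus WT was 2.46 after UUO and 2.59 after sham on the log2 scale, 5.48-fold and 6.02-fold, which ranked 6th and 2nd of all probe sets.

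The second Wdfy1 probe set, 1437358_at, read 780, 943 and 559 in TIMP2-/- UUO, 252, 329 and 240 in TIMP3-/- UUO and 151, 178 and 94 in WT UUO kidneys. After sham it read 368, 624 and 499 in TIMP2-/-, 228, 114 and 143 in TIMP3-/- and 125, 182 and 280 in WT kidneys. TIMP2-/- arrays were again above all others of the same operation, but its spread within groups was wider. The log2 difference of TIMP2-/- minus WT was 2.45 after UUO and 1.39 after sham.

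The third Wdfy1 probe set, 1453426_a_at, moved less between genotypes. It averaged 221 ± 52 in TIMP2-/- UUO, 95.9 ± 16.6 in TIMP3-/- UUO and 121 ± 18 in WT UUO kidneys, and 275 ± 32 in TIMP2-/- sham, 208 ± 38 in TIMP3-/- sham and 205 ± 6.2 in WT sham kidneys. TIMP2-/- arrays did not overlap with WT arrays after either operation, at log2 differences of 0.86 and 0.42. The probe sets 1424749_at and 1437358_at followed each other over the 18 arrays with a Pearson correlation of 0.89, and each followed 1453426_a_at less closely, with 0.56 and 0.32.

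Mettl23, the methyltransferase gene, was lower in TIMP2-/- kidneys. Its only probe set, 1451448_a_at, read 419, 459 and 474 in TIMP2-/- UUO, 613, 471 and 639.7 in TIMP3-/- UUO and 878, 640.5 and 891 in WT UUO kidneys. Sham kidneys read 657, 566 and 525 in TIMP2-/-, 854, 1206 and 1044 in TIMP3-/- and 989, 897 and 728 in WT kidneys. TIMP2-/- arrays lay below WT arrays without overlap, and after UUO 1 TIMP3-/- array fell within the TIMP2-/- range. TIMP2-/- minus WT was -0.82 after UUO and -0.58 after sham on the log2 scale.

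Usp36, the deubiquitinase gene next to Timp2, was lower in TIMP2-/- kidneys after UUO by 1 of its 2 probe sets. The probe set 1455237_at read 217, 212 and 268 in TIMP2-/- UUO, 359, 294 and 400 in TIMP3-/- UUO and 360.1, 376 and 384 in WT UUO kidneys. After sham it read 343, 326 and 375 in TIMP2-/-, 379.6, 447 and 432 in TIMP3-/- and 413, 366 and 319 in WT kidneys. The TIMP2-/- UUO arrays were the 3 lowest of the 18, while after sham the TIMP2-/- and WT arrays overlapped. TIMP2-/- minus WT was -0.69 after UUO and -0.07 after sham on the log2 scale. The probe set 1456094_at did not share this difference, with 192 ± 13 in TIMP2-/- UUO and 197 ± 2.9 in WT UUO kidneys and log2 differences of -0.04 after UUO and 0.22 after sham. The correlation between the 2 Usp36 probe sets was 0.47.

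Lsm12, the Sm-like gene, was higher in TIMP2-/- kidneys by about the same amount after both operations. It read 597, 567 and 619.7 in TIMP2-/- UUO, 335, 303 and 312 in TIMP3-/- UUO and 389.7, 368 and 401 in WT UUO kidneys. The sham values were 749, 638 and 589 in TIMP2-/-, 379, 416 and 409 in TIMP3-/- and 452, 456 and 387 in WT kidneys. The lowest TIMP2-/- array, at 567, was above the highest array of the other genotypes, at 456. The log2 difference of TIMP2-/- minus WT was 0.62 after UUO and 0.61 after sham.

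Prkca, the kinase gene, was higher in TIMP2-/- kidneys after UUO by both of its probe sets. The probe set 1450945_at read 89.2, 94.4 and 102 in TIMP2-/- UUO, 65.4, 59.1 and 74.3 in TIMP3-/- UUO and 46.0, 55.8 and 51.6 in WT UUO kidneys. In sham kidneys it read 82.6, 98.6 and 73.4 in TIMP2-/-, 69.0, 61.1 and 70.5 in TIMP3-/- and 71.0, 76.3 and 81.2 in WT kidneys. The TIMP2-/- and WT groups were apart after UUO and overlapped after sham, with log2 differences of 0.90 and 0.15. The probe set 1427562_a_at averaged 107 ± 21 in TIMP2-/- UUO, 67.9 ± 8.3 in TIMP3-/- UUO and 67.2 ± 10.9 in WT UUO kidneys, and 132 ± 8.1 in TIMP2-/- sham, 108 ± 16 in TIMP3-/- sham and 96.7 ± 10 in WT sham kidneys. Its log2 differences of TIMP2-/- minus WT were 0.67 after UUO and 0.46 after sham, without overlap in either.

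**Figure D1:**
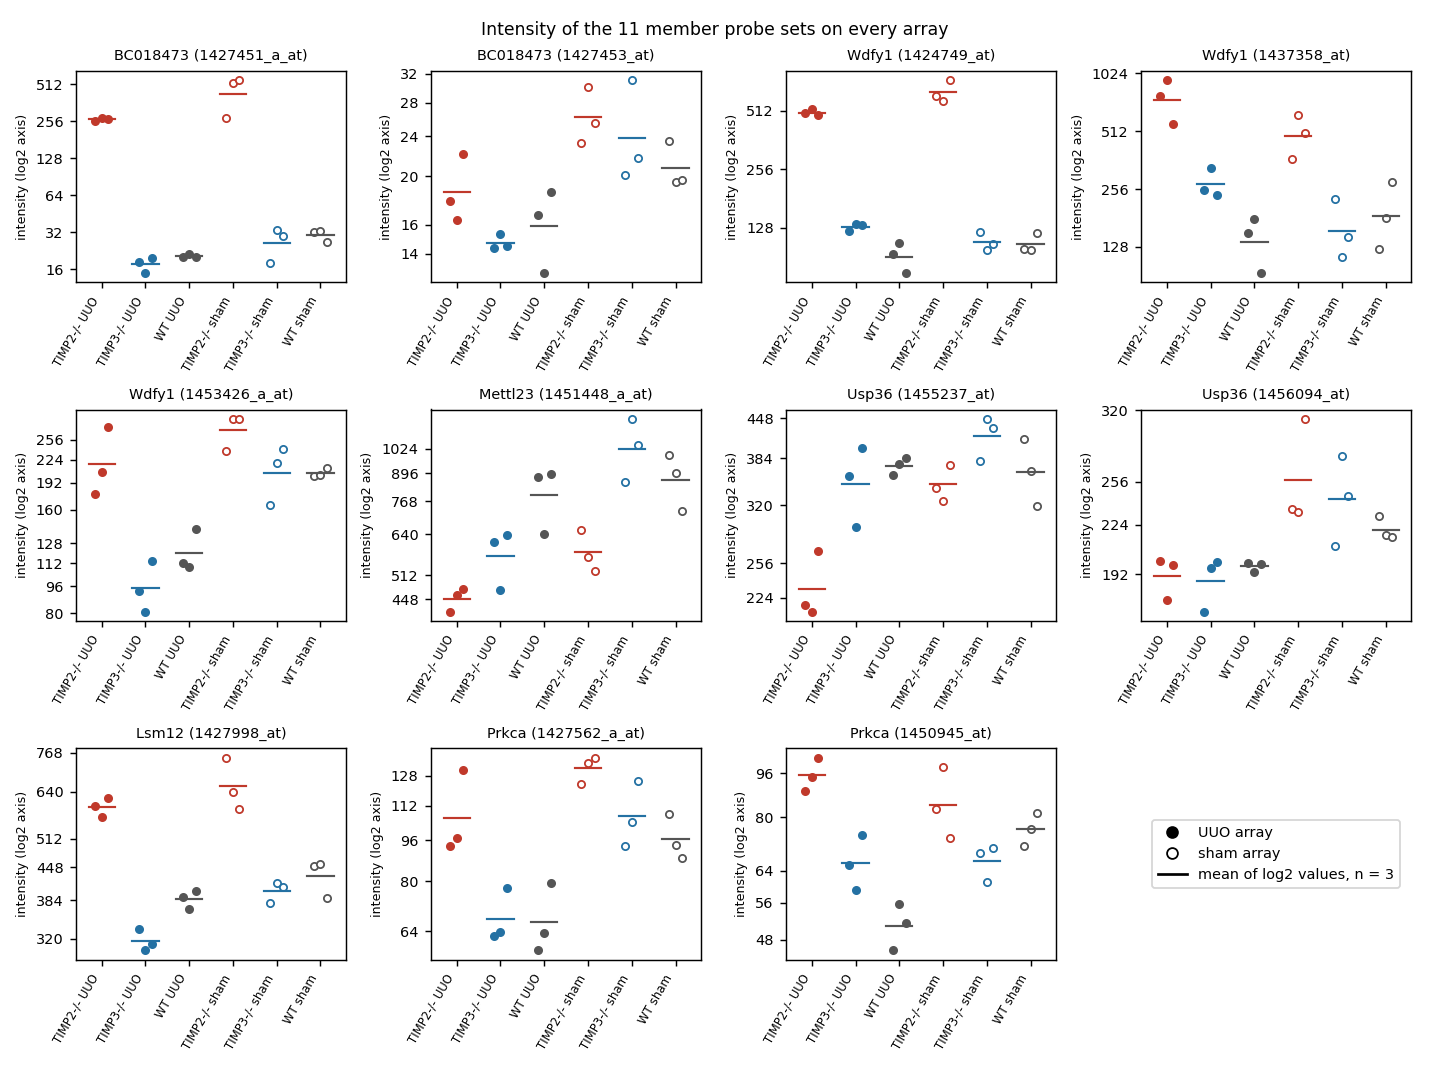
Intensity of the 11 probe sets (vertical axes, log2 scale) on each of the 18 arrays, by group along the horizontal axes, with filled points for UUO, open points for sham and a bar at the mean of the log2 values (n = 3). BC018473 1427451_a_at and Wdfy1 1424749_at show the TIMP2-/- arrays far above all others, and Mettl23 shows them below WT.

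Over the 11 probe sets, TIMP2-/- and WT arrays did not overlap after UUO for 9, of which 7 were higher and 2 lower in TIMP2-/-, where 8.62% of all probe sets did not overlap. After sham they did not overlap for 8, of which 7 were higher and 1 lower, where 41.5% of all probe sets did not overlap. The members were chosen on these differences, and nothing is read from the counts. The median log2 difference of the 11 was 0.67 after UUO and 0.42 after sham, against 0.04 and 0.11 over all probe sets. In whole kidney RNA, fewer cells of a type and less RNA per cell cannot be told apart. The summed markers of 6 macrophage genes were 33903 to 35195 in TIMP2-/- UUO and 28949 to 51938 in WT UUO kidneys. In sham kidneys they were 6922 to 8559 in TIMP2-/- and 4401 to 6722 in WT. The 6 hepatocyte markers summed to 5239 to 9827 in TIMP2-/- UUO and 4263 to 78669 in WT UUO kidneys, and to 16659 to 20370 in TIMP2-/- sham and 10762 to 11632 in WT sham kidneys. The part of these cell types in the differences was not tested.

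The region around Timp2 was then read gene by gene, since most genes there were taken by position and not by value. The flank of 100 genes on each side of Timp2 held 201 genes, of which 89 were measured by 138 probe sets. A probe set passed here at an adjusted p under 0.05, from limma's moderated test with Benjamini-Hochberg adjustment over all 22626 probe sets. The members, which were chosen on this comparison, were left out, and with them Timp2 itself. Of the remaining 127 probe sets, 0 passed by limma in TIMP2-/- against WT after UUO, where 0.0486% of all probe sets passed, and 0 after sham, where 0.0221% passed. Those shares still hold the members and Timp2, which gave 4 and 5 of the 11 calls after UUO and 2 and 0 of the 5 after sham. With so few calls elsewhere, 0 of 127 cannot tell the region from the rest of the array. At an unadjusted p under 0.05 there were 4 of the 127 after UUO and 41 after sham, where 3.37% and 25.8% of all probe sets other than the members were. The median log2 difference of the 127 was 0.04 after UUO and 0.31 after sham, against 0.04 and 0.11 over all probe sets.

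**Figure D2:**
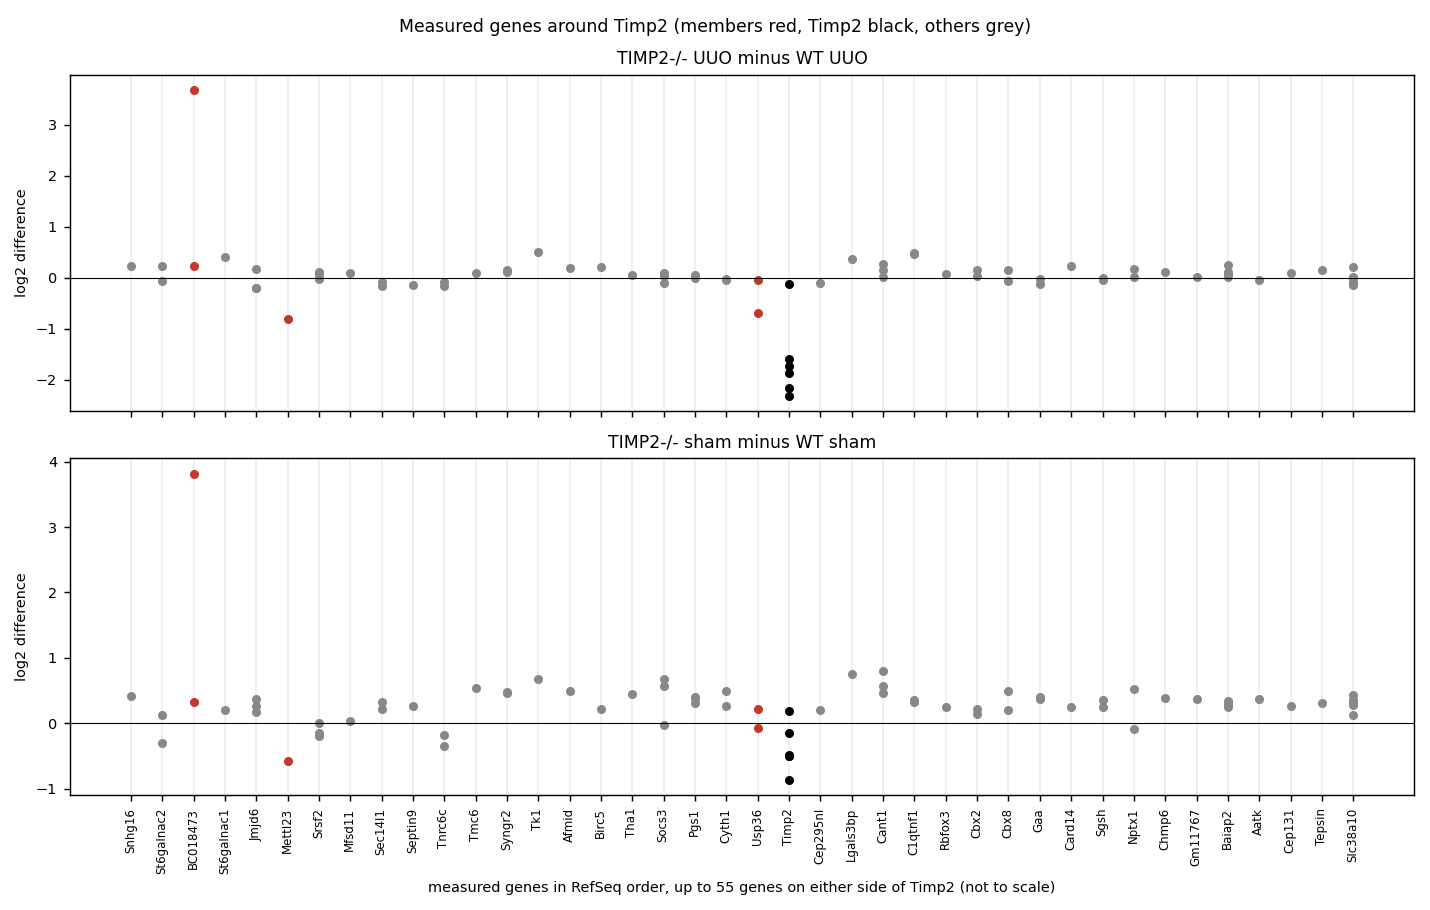
Log2 difference of TIMP2-/- minus WT (vertical axes) after UUO and after sham for every measured gene up to 55 genes on either side of Timp2, in RefSeq order, with 1 point for each probe set. BC018473 stands at 3.68 and 3.81 and Timp2 as low as -2.32 after UUO, while every grey point, the genes that are neither members nor Timp2, lies between -1 and 1.

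The measured genes nearest to each member were then set beside it; these were taken by position after the members' values had been seen. St6galnac1, the gene next to BC018473, read 20.5 ± 0.25 in TIMP2-/- UUO and 15.6 ± 0.81 in WT UUO kidneys, and 20.4 ± 2.0 in TIMP2-/- sham and 17.6 ± 1.6 in WT sham kidneys, so that it was dim throughout. St6galnac2, 2 genes off on the other side, differed by 0.23 after UUO and -0.29 after sham on the log2 scale. BC018473 was chosen on this comparison and had the largest difference of all probe sets, so nothing is read from its distance to these neighbours. Mettl23, also chosen on this comparison, differed by -0.82 after UUO and -0.58 after sham. It lies between Jmjd6, which differed by -0.20 and 0.18, and Srsf2, which differed by 0.10 and -0.15. Cyth1, on the side of Usp36 away from Timp2, differed by -0.04 after UUO and 0.49 after sham. Next to Lsm12, Tmem101 differed by 0.11 after UUO and 0.60 after sham, and G6pc3 by 0.19 and 0.42. Lsm12 itself differed by 0.62 and 0.61. After sham, 25.8% of all probe sets other than the members had an unadjusted p under 0.05, so that nothing is read from these neighbours. Mrpl44, whose span overlaps Wdfy1, differed by 0.21 after UUO and 0.20 after sham.

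On the whole of chromosome 11, as over the whole array, few probe sets other than the members and Timp2 passed. Of 1699 such probe sets, 1 passed after sham and 0 after UUO by limma, while 66 after UUO and 466 after sham had an unadjusted p under 0.05, where 3.37% and 25.8% of all probe sets other than the members did. The one that passed was Myl4, which encodes a myosin light chain of the heart atrium, with a log2 difference of 1.197 ± 0.16 (SE of the fit, adjusted p = 0.012 by limma) after sham and 0.55 after UUO. Around Wdfy1 on chromosome 1, the 50 genes on each side held 44 probe sets apart from those of Wdfy1, of which 0 passed by limma in TIMP2-/- against WT after UUO or after sham, with 3 and 16 at an unadjusted p under 0.05. Over the whole array, the probe sets that passed and were of neither the members nor Timp2 were Iapp and 1 without a single gene symbol after UUO, and Myl4 and 2 without a single gene symbol after sham.

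**Figure D3:**
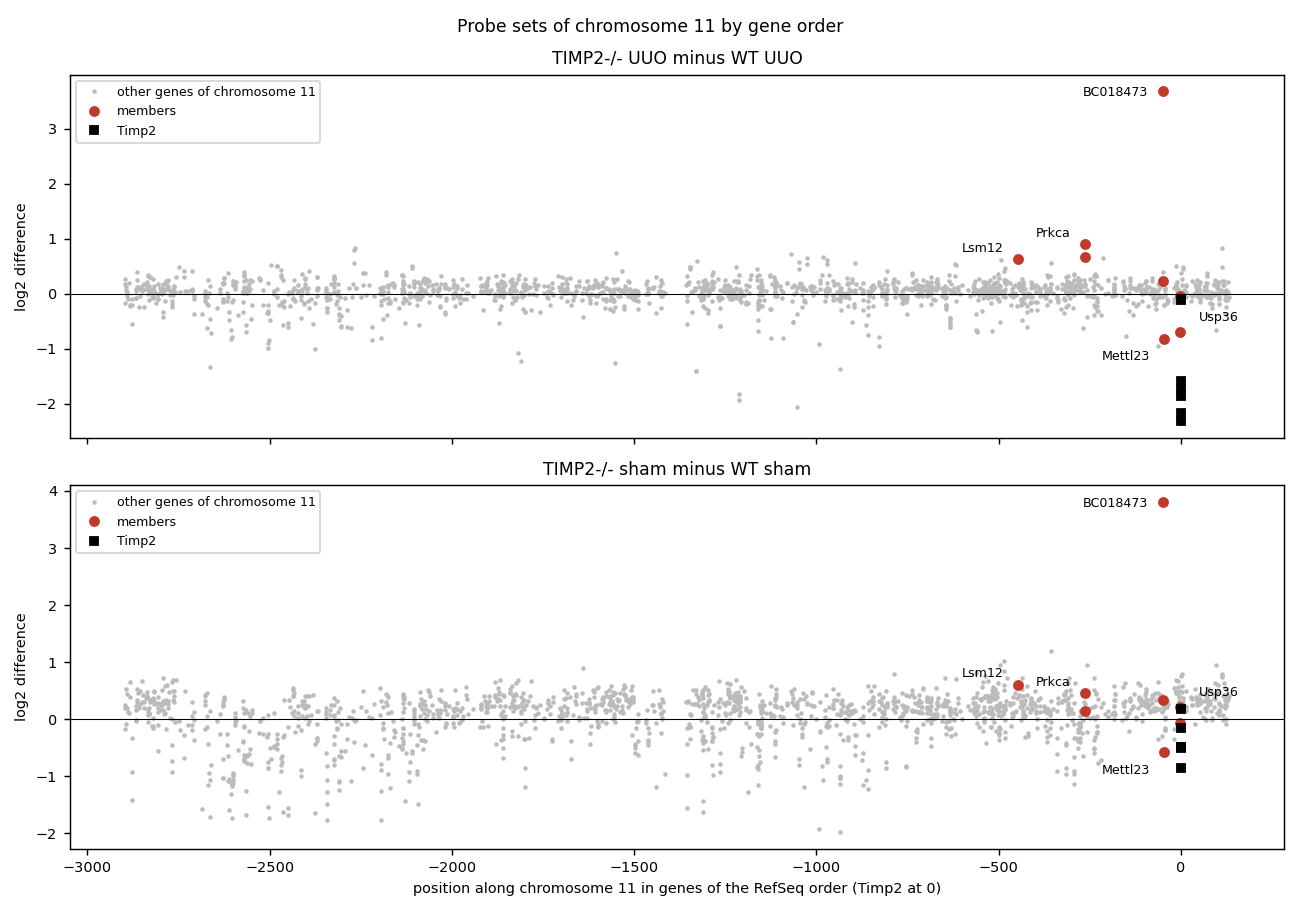
Log2 difference of TIMP2-/- minus WT (vertical axes) after UUO and after sham for the probe sets of chromosome 11, by position in the RefSeq gene order with Timp2 at 0. Red points are the members and black squares Timp2, and BC018473 at 3.68 and 3.81 stands above every grey point in both panels.

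The response to obstruction was not the comparison used to choose the genes, though it shares TIMP2-/- and WT arrays with it, and was tested in each genotype, as UUO against sham, with the same model over all 18 arrays. In TIMP2-/- kidneys 4 of the 11 probe sets were lower after UUO and 0 higher, where 20.9% of all probe sets were lower and 14.1% higher. In TIMP3-/- kidneys 6 were lower and 1 higher, where 37.5% were lower and 25% higher. In WT kidneys 3 were lower and 0 higher, where 16.1% were lower and 14.7% higher. The median log2 difference of the 11 was -0.35 in TIMP2-/-, -0.37 in TIMP3-/- and -0.39 in WT kidneys, against -0.12, -0.18 and -0.12 over all probe sets. The labels call the samples biological replicates, and p-values measure the spread between them. With 3 arrays a group, the smallest 2-sided p of an exact permutation test is 0.1, so that calls rest on the spread pooled by the model.

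BC018473, the long non-coding RNA, fell in TIMP2-/- kidneys after UUO by 1427451_a_at. The probe set 1427453_at passed too, but on every array it lay under the lower quartile of intensity, 56.8 to 64.2. The log2 difference of UUO minus sham in TIMP2-/- kidneys was -0.69 ± 0.24 (SE of the fit, adjusted p = 0.0382 by limma) for 1427451_a_at and -0.49 ± 0.18 (adjusted p = 0.0459) for 1427453_at. With the replicate number as a block, the second had an adjusted p of 0.0561, within 0.0206 to 0.177 over its alternatives. It also lost its call with 16 added before log2, at 0.0589, and after a further quantile normalization, at 0.145. The first lost its call when single arrays were left out, with an adjusted p of 0.105 without TIMP2-/- UUO 1, 0.0896 without TIMP2-/- UUO 2, 0.0595 without TIMP2-/- UUO 3, 0.135 without TIMP2-/- sham 2 and 0.166 without TIMP2-/- sham 3, within 0.00408 to 0.166 over its alternatives. The second lost it without TIMP2-/- UUO 1, TIMP2-/- UUO 2, TIMP2-/- sham 2 or TIMP2-/- sham 3, with 0.130, 0.177, 0.156 and 0.0927. In TIMP3-/- kidneys 1427453_at fell by 0.70 on the log2 scale (adjusted p = 0.0043 by limma). The Timp3 probe sets, also dim in those kidneys, had log2 differences there of -0.21, -0.72, -0.80 and -0.40. The values of 1427451_a_at were -0.57 ± 0.24 in TIMP3-/- and -0.56 ± 0.24 in WT kidneys, which did not pass, with adjusted p of 0.0524 and 0.0907. In TIMP3-/- kidneys that probe set passed without TIMP3-/- UUO 3, at 0.0488, or without TIMP3-/- sham 1, at 0.00718, within 0.00718 to 0.208 over its alternatives.

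The 3 Wdfy1 probe sets answered UUO in different ways. The probe set 1453426_a_at fell in TIMP3-/- kidneys by 1.11 ± 0.19 on the log2 scale (adjusted p = 0.00018 by limma) and fell by 0.77 ± 0.19 in WT kidneys (adjusted p = 0.00561), and was -0.33 ± 0.19 in TIMP2-/- kidneys, which did not pass except without TIMP2-/- UUO 3, at 0.0376, within 0.0376 to 0.507 over its alternatives. Without WT UUO 2, WT sham 3 and TIMP3-/- UUO 2 together, the WT value did not pass, with an adjusted p of 0.06, the highest over its alternatives, whose lowest was 0.000821. The probe set 1437358_at rose in TIMP3-/- kidneys by 0.80 ± 0.33 (adjusted p = 0.045 by limma). That call was lost without TIMP3-/- UUO 1, TIMP3-/- UUO 2, TIMP3-/- sham 2 or TIMP3-/- sham 3, with adjusted p of 0.0674, 0.144, 0.18 and 0.113, within 0.0141 to 0.18 over its alternatives, and without the 3 arrays that stood apart, at 0.101. Its values were 0.61 ± 0.33 in TIMP2-/- and -0.45 ± 0.33 in WT kidneys, and neither passed. The probe set 1424749_at passed in no genotype, with -0.35 in TIMP2-/-, 0.26 in TIMP3-/- and -0.21 in WT kidneys, though in TIMP2-/- kidneys it passed without the 3 arrays that stood apart, at 0.0423, within 0.0107 to 0.249 over its alternatives.

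Mettl23 fell in TIMP3-/- kidneys by 0.85 ± 0.18 on the log2 scale (adjusted p = 0.000938 by limma). Its values of -0.37 in TIMP2-/- and -0.12 in WT kidneys did not pass, though in TIMP2-/- kidneys it passed without the 3 arrays that stood apart, at 0.0419, within 0.0419 to 0.285 over its alternatives. Usp36 fell in TIMP2-/- kidneys by both probe sets, with log2 differences of -0.59 ± 0.14 for 1455237_at (adjusted p = 0.00577 by limma) and -0.43 ± 0.13 for 1456094_at (adjusted p = 0.0208). The call of 1456094_at was lost without TIMP2-/- UUO 2, at 0.0916, and without TIMP2-/- sham 3, at 0.113, within 0.00854 to 0.113 over its alternatives, while that of 1455237_at held in all 15 of its alternatives. In TIMP3-/- kidneys 1456094_at fell by 0.37 (adjusted p = 0.0247), which was lost without TIMP3-/- UUO 1, TIMP3-/- sham 2 or TIMP3-/- sham 3, at 0.0946, 0.118 and 0.0634, within 0.00285 to 0.118 over its alternatives. There 1455237_at, at -0.26, did not pass, though it did without TIMP3-/- UUO 3, at 0.0414, after quantile normalization, at 0.0193, and after median centring, at 0.0142, within 0.0142 to 0.399 over its alternatives. In WT kidneys neither Usp36 probe set passed, with 0.04 for 1455237_at and -0.17 for 1456094_at.

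Lsm12 fell in TIMP3-/- kidneys by 0.34 on the log2 scale (adjusted p = 0.0149 by limma), which was lost without TIMP3-/- sham 2, at 0.051, within 0.00107 to 0.0721 over its alternatives. Its values of -0.14 in TIMP2-/- and -0.16 in WT kidneys did not pass. Prkca fell in WT kidneys by both probe sets, with log2 differences of -0.58 ± 0.13 for 1450945_at (adjusted p = 0.00385 by limma) and -0.53 ± 0.16 for 1427562_a_at (adjusted p = 0.0208). The second of these was lost without WT UUO 1, WT UUO 2 or WT sham 1, at 0.0892, 0.0733 and 0.0824, and without the 3 arrays that stood apart, at 0.0822, within 0.00871 to 0.0892 over its alternatives. In TIMP3-/- kidneys 1427562_a_at fell by 0.66 ± 0.16 (adjusted p = 0.00295) and 1450945_at was -0.02. In TIMP2-/- kidneys the values were -0.32 for 1427562_a_at, which passed only without TIMP2-/- UUO 3, at 0.0305 within 0.0305 to 0.372 over its alternatives, and 0.18 for 1450945_at, which did not pass. No test was made of whether the response of a member in TIMP2-/- kidneys differed from that in WT kidneys, since the choice of the members bears on it.

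The summed markers of macrophages and of kidney cells differed between UUO and sham kidneys as well. The summed macrophage markers were 33903 to 35195 in TIMP2-/- UUO against 6922 to 8559 in TIMP2-/- sham kidneys, 41495 to 60569 in TIMP3-/- UUO against 6607 to 8535 in TIMP3-/- sham kidneys, and 28949 to 51938 in WT UUO against 4401 to 6722 in WT sham kidneys. The summed kidney markers were 50039 to 58671 in TIMP2-/- UUO against 83669 to 89835 in TIMP2-/- sham kidneys, 28279 to 46613 in TIMP3-/- UUO against 82656 to 86136 in TIMP3-/- sham kidneys, and 33770 to 65870 in WT UUO against 82010 to 95269 in WT sham kidneys. Array intensities have no true zero, so that no marker can be called absent. The part of these cell types in the members' responses was not tested.

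**Figure D4:**
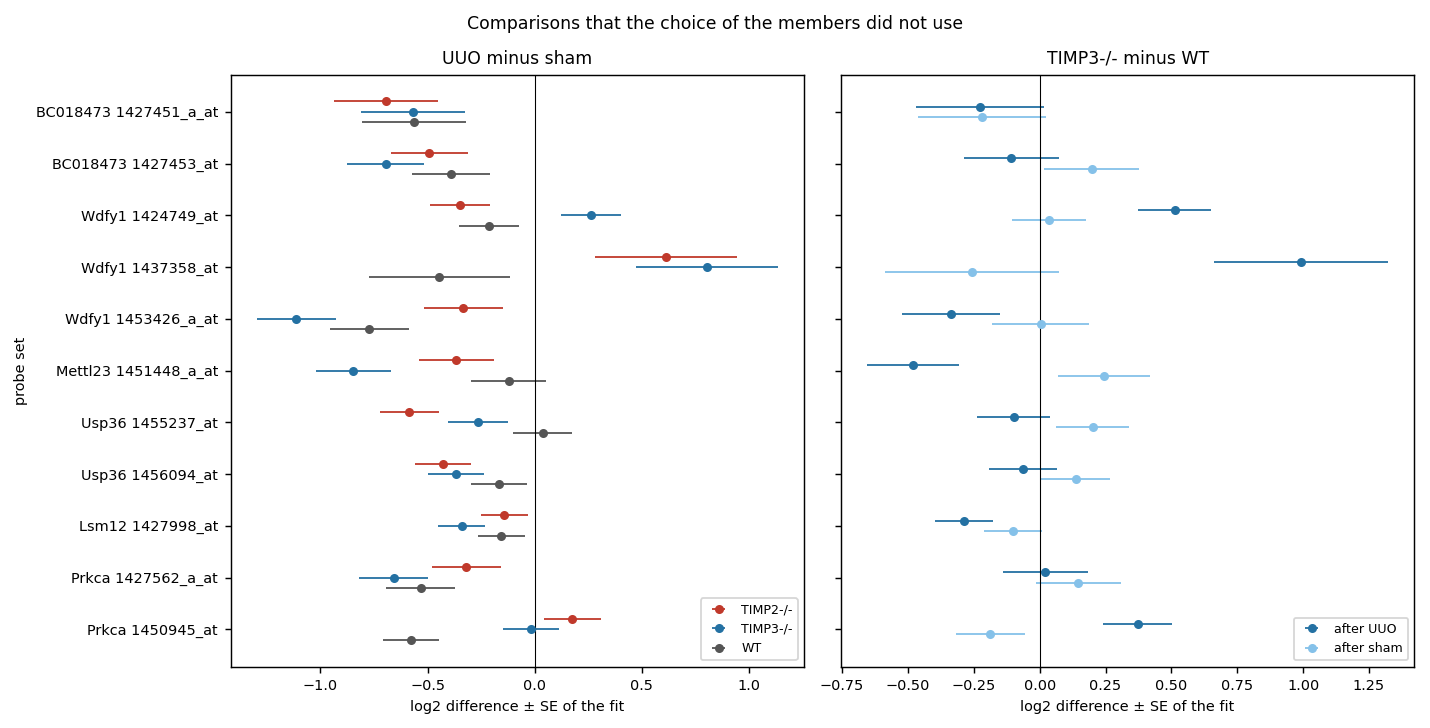
Log2 differences (horizontal axes, point and bar for the value ± SE of the fit) of the 11 probe sets, for UUO minus sham in each genotype and for TIMP3-/- minus WT after UUO and after sham. Responses to UUO lie below 0 for 9 of 11 probe sets in TIMP2-/-, 9 in TIMP3-/- and 10 in WT kidneys, with Wdfy1 1437358_at at 0.61 in TIMP2-/- and 0.80 in TIMP3-/- kidneys.

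TIMP3-/- kidneys, which lack a related inhibitor, were compared with the WT arrays that the choice of the genes had also used, so that the tests below are not independent of that choice. After UUO, 0 of the 11 probe sets passed in TIMP3-/- against WT by limma, where 0.707% of all probe sets passed, and 5 had an unadjusted p under 0.05, where 20.5% of all did. These 5 were Wdfy1 1424749_at at 0.51 ± 0.14 on the log2 scale (adjusted p = 0.0981), Wdfy1 1437358_at at 0.99 ± 0.33 (adjusted p = 0.139), Prkca 1450945_at at 0.37 ± 0.13 (adjusted p = 0.154), Mettl23 at -0.48 ± 0.18 (adjusted p = 0.162) and Lsm12 at -0.29 ± 0.11 (adjusted p = 0.178). Without WT UUO 2, whose hepatocyte markers stood high, Wdfy1 1424749_at passed at 0.62 (adjusted p = 0.0218) and Mettl23 at -0.64 (adjusted p = 0.0402), within 0.0218 to 0.498 and 0.0402 to 0.602 over their alternatives. In that setting 2203 of all 22626 probe sets passed, against 160 with all 18 arrays. BC018473 1427451_a_at, at 17.7 ± 2.5 in TIMP3-/- UUO and 20.6 ± 0.70 in WT UUO kidneys, differed by -0.23 and did not pass.

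After sham, 0 of the 11 passed in TIMP3-/- against WT by limma, where 0.0442% of all probe sets passed, and 0 had an unadjusted p under 0.05, where 10.6% of all did. The log2 differences lay between -0.26 and 0.25. The difference between TIMP3-/- and WT in the response to UUO passed for 0 of the 11 by limma, where 0% of all probe sets passed, and 4 had an unadjusted p under 0.05, where 25.9% of all did. For Wdfy1 1424749_at TIMP2-/- minus WT was 2.46 and TIMP3-/- minus WT 0.51 after UUO, for Mettl23 the 2 values were -0.82 and -0.48, and for Lsm12 they were 0.62 and -0.29.

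The families of the members were read from lists with the members left out, and the medians given run in the order TIMP2-/-, TIMP3-/- and WT kidneys. Over all probe sets the medians were -0.12, -0.18 and -0.12. Among 7 measured genes of the protein kinase C family other than Prkca, with 11 probe sets, 3 probe sets rose and 2 fell in TIMP2-/- kidneys after UUO, 4 rose and 5 fell in TIMP3-/- kidneys, and 3 rose and 2 fell in WT kidneys. In this family 45.5%, 81.8% and 45.5% of probe sets passed, against 35.0%, 62.5% and 30.8% of all probe sets. The median log2 differences of the family were -0.06, 0.11 and -0.24. Prkcb, another conventional isoform, had a log2 difference of 1.80 ± 0.29 in TIMP2-/-, 2.53 ± 0.29 in TIMP3-/- and 1.32 ± 0.29 in WT kidneys (adjusted p = 0.00038, 7.22e-06 and 0.00273 by limma). Prkcz, an atypical isoform, had -1.36 ± 0.30 in TIMP2-/-, -2.38 ± 0.30 in TIMP3-/- and -1.29 ± 0.30 in WT kidneys (adjusted p = 0.00387, 1.77e-05 and 0.00466 by limma). Prkca stood at -0.53 and -0.58 in WT kidneys by its own probe sets.

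Among 7 measured genes of the WDFY and TRIF signalling list other than Wdfy1, with 13 probe sets, 1 probe set rose and 2 fell in TIMP2-/- kidneys after UUO, 8 rose and 3 fell in TIMP3-/- kidneys, and 1 rose and 1 fell in WT kidneys. In this list 23.1%, 84.6% and 15.4% of probe sets passed, against 35.0%, 62.5% and 30.8% of all probe sets. Their median log2 differences in this list were 0.39, 0.69 and 0.09. Ikbke, a kinase that acts downstream of TRIF, rose by 0.76 ± 0.25 in TIMP2-/-, 1.36 ± 0.25 in TIMP3-/- and 1.08 ± 0.25 in WT kidneys (adjusted p = 0.0285, 0.00037 and 0.0043 by limma). Irf3, a transcription factor activated through TRIF, fell by 0.57 ± 0.20 in TIMP2-/- kidneys by the probe set with the larger change (adjusted p = 0.0352). Tlr4, the receptor for bacterial lipopolysaccharide, rose by 1.62 ± 0.44 in TIMP3-/- kidneys (adjusted p = 0.00606). Tlr3, the receptor for double-stranded RNA, rose by 1.48 ± 0.30 there (adjusted p = 0.000876).

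Of 34 measured ubiquitin-specific protease genes other than Usp36, with 56 probe sets, 4 probe sets rose and 9 fell in TIMP2-/- kidneys after UUO, 17 rose and 18 fell in TIMP3-/- kidneys, and 2 rose and 7 fell in WT kidneys, with median log2 differences of 0.05, 0.07 and -0.27. For this and the following lists, the share of all probe sets that passed was 35.0%, 62.5% and 30.8%. Usp2, another deubiquitinase, had log2 differences of -1.68 ± 0.31 in TIMP2-/-, -2.54 ± 0.31 in TIMP3-/- and -1.22 ± 0.31 in WT kidneys (adjusted p = 0.00127, 1.34e-05 and 0.00809 by limma). Of 12 measured METTL genes other than Mettl23, with 18 probe sets, 3 probe sets rose and 6 fell in TIMP2-/- kidneys, 6 rose and 9 fell in TIMP3-/- kidneys, and 2 rose and 2 fell in WT kidneys, with median log2 differences of -0.01, -0.30 and -0.08. Mettl7b had -1.09 ± 0.32 in TIMP2-/-, -2.68 ± 0.32 in TIMP3-/- and -1.10 ± 0.32 in WT kidneys (adjusted p = 0.0166, 1.02e-05 and 0.0162 by limma). Of 9 measured LSM genes other than Lsm12, 0 passed in TIMP2-/- kidneys by limma, with 4 at an unadjusted p under 0.05 where 46.9% of all were, 1 rose and 2 fell in TIMP3-/- kidneys and 1 rose in WT kidneys, with median log2 differences of 0.06, -0.14 and 0.29. Lsm8, a subunit of the nuclear Lsm ring that binds U6 RNA, rose by 1.72 ± 0.42 in TIMP3-/- kidneys (adjusted p = 0.00303), and Lsm1, a subunit of the cytoplasmic ring, rose by 0.54 ± 0.15 in WT kidneys (adjusted p = 0.0124).

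Over the 18 arrays, the probe set most like BC018473 1427451_a_at was Wdfy1 1424749_at, with a Pearson correlation of log2 values of 0.96, followed by Lsm12 with 0.93 and Myl4 with 0.87. Angel2 ran most against it, with -0.86. Lsm12 in turn was most like BC018473, then Wdfy1 with 0.84 and Tubb4b with 0.84, and least like Helz with -0.86. These arrays fall into groups of genotype and operation, and the correlations carry those group differences, so that they are a description. The 6 genes were chosen for a difference between TIMP2-/- and WT on these same arrays. Correlations among the 6, of either sign, therefore follow in part from that choice, and nothing is read from them. Mettl23 was most like Egln1 with 0.81, Usp36 1455237_at with 0.81 and Slc6a6 with 0.81, and ran most against Wdfy1 1437358_at, with -0.88. Leaving out other probe sets of its own gene, as throughout, that Wdfy1 probe set was most like BC018473 with 0.78, Ctse with 0.77 and Prkca 1450945_at with 0.77. Usp36 1455237_at was most like Igfbp4 with 0.82, Mettl23 with 0.81 and Galnt2 with 0.79, and also ran most against Wdfy1 1437358_at, with -0.83. Prkca 1427562_a_at was most like Tex9 with 0.96, Wdfy1 1453426_a_at with 0.95 and Mog with 0.94, and least like Ryk with -0.94.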

How the data were processed

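Values were the deposited table of the series, 1 intensity per probe set and array on a linear scale. The authors' values were made with RMA, per the submitters' processing notes. The sources used here give neither its version nor the step from its log2 scale to linear intensity. RMA brings the arrays' distributions close to each other, though not to equality in the deposited values, whose array medians lay between 201 and 247. A shift of all transcripts therefore cannot be read from these values. Of 22690 probe sets, 64 controls were left out, and of the other 22626, 20380 had 1 gene symbol, 691 several and 1555 none. Of 12393 symbols 12377 matched RefSeq (GRCm38.p6), among them all 6 members; this table gave gene order only. Array number limits precision.

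Values were converted to log2 without pseudocount. One limma model (3.58.1, R 4.3.3) of 6 group means was fitted to 18 arrays, with 12 residual and 3.28 prior degrees of freedom, and p-values were adjusted by Benjamini-Hochberg within a comparison. The fit was tested on simulated data. Every member probe set is named, as are flank genes that passed, the largest changes of each family list and, by correlation, the 3 most like and the 1 least like gene. Members, lists and tests were chosen with earlier results of these data known. Label numbers were checked for pairing: deviations of same-numbered arrays correlated above 0.1 in every pair for UUO against sham in TIMP2-/- (0.28 to 0.56) and for TIMP2-/- against WT after UUO (0.18 to 0.48), and in no other comparison tested. Over all comparisons the single values ran from -0.58 to 0.61, and the labels name no pairs, so that pairing was not established. The alternatives were other scalings, filters, log offsets and probe set summaries, a replicate block, and leaving out arrays.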

Additional observations from a re-analysis of the deposited data

Results flagged for a closer look

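Wdfy1 1424749_at moved in opposite directions with obstruction in the knockouts. All 3 TIMP2-/- UUO arrays, at 484 to 521, lay below all 3 TIMP2-/- sham arrays, at 576 to 733, and all 3 TIMP3-/- UUO arrays, at 124 to 133, lay above all 3 TIMP3-/- sham arrays, at 98.3 to 122. The response in TIMP2-/- minus that in TIMP3-/- kidneys was -0.61 on the log2 scale. This difference was not tested, and neither response passed on its own in the model of all 18 arrays. Over 14 alternatives the TIMP3-/- response ran from 0.031 to 0.35 and passed in 0. The TIMP2-/- response ran from -0.50 to -0.25 and passed in 4. The share of all probe sets without overlap was not computed for UUO against sham.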

How the results depend on the processing

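In TIMP2-/- against WT, which was not tested, 9 of the 11 member probe sets kept their direction after UUO and after sham under every scaling, filter, offset and array left out, and the exceptions were Usp36 1456094_at after UUO (-0.074 to 0.015) and Usp36 1455237_at after sham (-0.16 to 0.024). The offset log2(value + 16) brought BC018473 1427451_a_at to 2.94 after UUO and 3.26 after sham, and Wdfy1 1424749_at to 2.27 and Prkca 1450945_at to 0.73 after UUO, and a further quantile normalization gave 3.54 for BC018473 after UUO. With 1 probe set per gene, the brightest or the mean, 5 members did not overlap after sham. The share over all genes was not computed there, and nothing is read from this count. Counted with the members and Timp2, as a description, the flank had 6 calls after UUO, of BC018473 and 5 of Timp2, and 1 after sham, of BC018473. After sham it had 0 without probe sets of mean log2 under 6, with 25 genes on each side, or without members and Timp2, and after UUO 2 with 1 probe set per gene (brightest or mean) and 0 without members and Timp2.

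Of the counts for UUO against sham, TIMP2-/- fell to 2 without dim probe sets, with the brightest or the mean probe set of a gene, and with only the arrays compared, TIMP3-/- to 4 with the brightest, and WT to 1 with the brightest and to 1 without the 3 arrays that stood apart. In those settings all calls in TIMP2-/- were 6697 of 16909, 4692 and 4628 of 12393, and 8466 of 22626. They were 8001 of 12393 in TIMP3-/-, and 4086 of 12393 and 3852 of 22626 in WT. Fewer probe sets are tested in the filtered and summarised settings, and elsewhere the cause was not tested. With single arrays left out, the counts ran from 1 to 5 in TIMP2-/-, 4 to 9 in TIMP3-/- and 2 to 3 in WT, from 0 to 2 for TIMP3-/- against WT after UUO, and stayed at 0 for TIMP3-/- against WT after sham and for the difference in response. All 22626 probe sets gave 4033 to 9630 calls in TIMP2-/-, 11035 to 14853 in TIMP3-/- and 4405 to 7397 in WT. They gave 35 to 2485 for TIMP3-/- against WT after UUO, 5 to 6 after sham and 0 to 47 for the difference in response. Non-overlapping members ran from 9 to 9 after UUO and 8 to 9 after sham, and flank calls from 5 to 6 after UUO and 1 to 1 after sham.

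With the replicate number as a block, UUO against sham gave 3 member calls in TIMP2-/-, 7 in TIMP3-/- and 3 in WT. Over all 22626 probe sets, 8524, 14279 and 7541 passed there. The labels do not say that the numbers pair arrays. In TIMP2-/- against WT after UUO the block changed no flank call. Some calls appeared under other settings: in TIMP2-/- kidneys Wdfy1 1424749_at passed with the offset (adjusted p = 0.0412), quantile normalization (0.0198), median centring (0.0107) and without the 3 arrays (0.0423), within 0.0107 to 0.249 over its alternatives, and in WT kidneys BC018473 1427451_a_at passed with median centring (0.0442) and with only the arrays compared (0.0279), within 0.0279 to 0.211.

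Differences near 0 changed sign. Prkca 1450945_at in TIMP3-/- kidneys, UUO minus sham, was 0.076 after quantile normalization and 0.063 without the 3 arrays, and -0.10 to 0.063 with single arrays left out. Usp36 1455237_at in WT kidneys was -0.075 after quantile normalization, -0.093 after centring and -0.063 without the 3 arrays, and -0.059 to 0.13 with single arrays left out, and Mettl23 there was -0.25 to 0.034. For TIMP3-/- minus WT after UUO, Usp36 1455237_at was 0.027 without the 3 arrays and -0.20 to 0.023 with single arrays left out, Prkca 1427562_a_at was -0.043 after centring and -0.077 to 0.15, Usp36 1456094_at -0.11 to 0.0063 and BC018473 1427453_at -0.26 to 0.0065. None of these passed, and the cause was not tested. Signal limits the dim probe sets: BC018473 outside TIMP2-/- kidneys lay under the lower quartile of its arrays.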
